A study of Mus musculus with 8 samples.

Results

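The genes described here are 37 genes of the extracellular matrix and of its remodelling, taken as a fixed list of gene symbols and found in the counts through their mouse Ensembl identifiers. All 37 were among the 39056 genes counted, and all 37 were among the 14796 that passed the filter on low counts. They comprised 14 collagen chains, 10 other structural proteins of the basement membrane, cell adhesion and elastic fibres, 3 small proteoglycans, 2 cross-linking enzymes, 2 metalloproteinases with 3 of their inhibitors, and the 3 TGF-beta ligands. The study sequenced poly-A RNA from hearts of male mice, 3 months old, with 1 library per heart. The 4 hearts numbered 1 to 4 came from HVCN1-/- mice (HVCN1 null, labelled Hv1 null or KO) and the 4 hearts numbered 5 to 8 from wild-type mice (WT, C57BL/6 background). HVCN1 is a voltage-gated proton channel, and no treatment beside the knockout is named for either group. The comparison asked whether the loss of HVCN1 was accompanied by a different level of matrix transcripts in the heart.

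The cardiac matrix is laid down mainly by fibroblasts. Fibrillar collagens give the tissue its tensile strength, basement membranes of type IV collagen and laminin surround myocytes and capillaries, and elastic fibres provide recoil. Lysyl oxidases cross-link collagen and elastin, metalloproteinases and their TIMP inhibitors set the rate of degradation, and TGF-beta is the best known stimulus of collagen transcription. A coordinated rise of these transcripts, led by collagens I and III, periostin and TGF-beta targets, is the usual signature of cardiac fibrosis.

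The libraries held 25851255 to 36396297 counts for HVCN1 null and 32595114 to 38874640 for WT. Hvcn1 itself measured 0.18, 0.16, 0.038 and 0.085 CPM (counts relative to the library total, scaled by TMM) in HVCN1 null hearts and 2.58, 1.51, 2.62 and 2.30 CPM in WT hearts, with a log2 fold change of -4.20 (edgeR adjusted p = 0.000363). Myl7, which encodes the atrial myosin light chain, measured 17.0, 632, 609 and 33.6 CPM in HVCN1 null hearts and 578, 0.618, 1190 and 0.169 CPM in WT hearts. Each genotype thus held 2 hearts with Myl7 above 500 CPM and 2 hearts below 40 CPM, and in WT hearts 6 and 8 this atrial marker was nearly absent, at 20 and 5 counts. Ventricular markers (Myl2, Myl3, Myh7 and Irx4) were abundant in all 8 hearts, at a summed 7359 to 13690 CPM. Whether atria were removed is not given in the sources used here.

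No matrix gene passed the test between genotypes. In edgeR's quasi-likelihood test, 0 genes passed a Benjamini-Hochberg adjusted p under 0.05, where 1.14% of all tested genes did. At an unadjusted p under 0.05 the count was also 0, against 11.0% of all tested genes. The 2 sets of 4 values overlapped for each of the 37 genes, so that 0 were free of overlap, beside 7.06% of all tested genes. The log2 fold change (HVCN1 null over WT, so that a negative value is lower in HVCN1 null hearts) was above 0 for 16 genes and below 0 for 21, with a median of -0.032, beside -0.011 over all tested genes. Individual values ran from -0.46 for Eln to 0.28 for Timp3, and the smallest p of the list was 0.0609, for Col6a3. DESeq2 likewise called 0 of the 37, where it called 3.15% of all genes, and gave 0 at an unadjusted p under 0.05, where 11.4% of all genes lay. The balance of signs rested on single hearts: without HVCN1 null heart 1 the median was -0.152, with 31 genes below 0 (53.1% of all genes) and 3 at an unadjusted p under 0.05 (9.91% of all genes), and without WT heart 7 it was 0.037, with 24 genes above 0 (48.8% of all genes) and 1 at an unadjusted p under 0.05 (11.0%).

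The 95% interval of the fold change lay inside a 2-fold change in both directions for 34 of the 37 genes. The standard error ran from 0.096 for Lamb2 to 0.407 for Col14a1 and Postn on the log2 scale, with a median of 0.183. The genes gave between 57 and 27368 counts per heart. The median SD between hearts of 1 genotype, on the log2 CPM scale, was 0.317 for the matrix genes, 0.206 for all tested genes and 0.175 for the 11134 tested genes in the same range of levels. In such bulk samples, fewer cells of a type and less RNA per cell cannot be told apart.

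**Figure D1:**
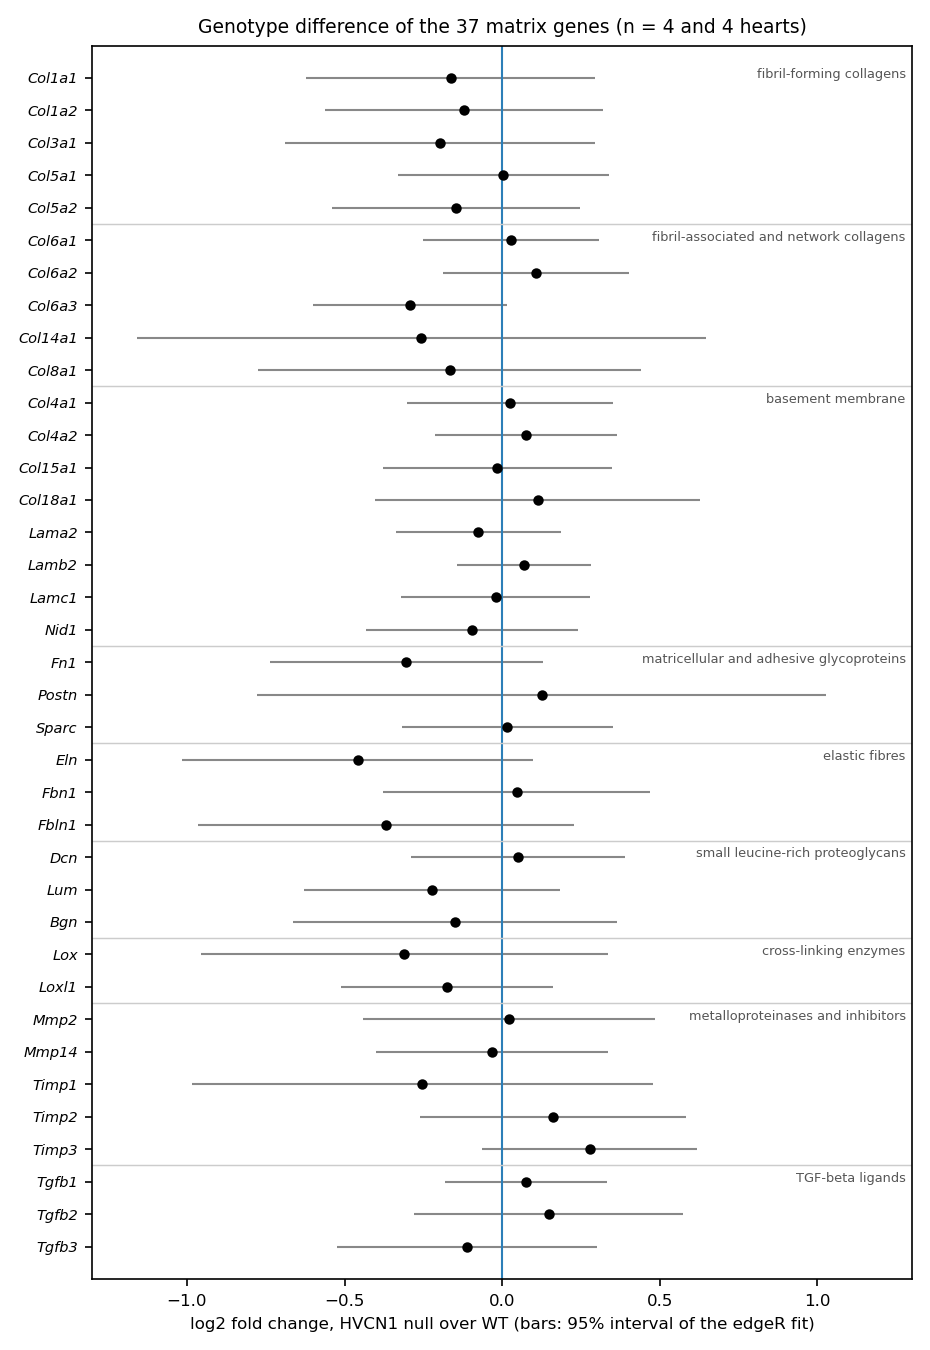
Log2 fold change of each matrix gene, HVCN1 null over WT (x axis), with genes on the y axis grouped by role; points are the estimates of the edgeR fit and bars their 95% intervals, from 4 and 4 hearts. The interval of each of the 37 genes includes 0, and Col14a1 and Postn have the widest.

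Fibril-forming collagens had log2 fold changes between -0.20 and 0.004. Type I collagen, the main load-bearing collagen of the heart, is built of the chains encoded by Col1a1, at -0.16 (SE 0.207), and Col1a2, at -0.12 (SE 0.199). Type V collagen, which starts and limits fibril growth, is encoded by Col5a1, at 0.004 (SE 0.151), and Col5a2, at -0.15 (SE 0.177). Col3a1 (ENSMUSG00000026043, chr1:45311538-45349706, plus strand, positions of the GENCODE M21 annotation on GRCm38 here and below) encodes type III collagen, the more compliant partner of type I in fibrils. It had both the highest level of the group per length, 53.1 CPM per kb of transcript, and the largest difference. Col3a1 measured 363, 256, 269 and 213 CPM (HVCN1 null, hearts 1 to 4) and 314, 271, 453 and 225 CPM (WT, hearts 5 to 8). The highest heart and the lowest heart belonged to different genotypes, and the groups overlapped through most of their range, at 275 ± 63.03 CPM against 316 ± 98.5 CPM (SD, n = 4 and 4). The log2 fold change of Col3a1 was -0.20 (95% interval -0.69 to 0.29, adjusted p = 0.863).

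Among the fibril-associated and network collagens the log2 fold changes ran from -0.29 to 0.11. Type VI collagen forms beaded microfilaments around cells, and its chains did not share a sign: Col6a1 was at 0.028 (SE 0.126), Col6a2 at 0.11 (SE 0.134) and Col6a3 at -0.29 (SE 0.139). Col14a1, whose product binds to the surface of fibrils, was at -0.26 (SE 0.407). Col8a1, a short-chain collagen of vessel walls and of the remodelling heart, was at -0.17 (SE 0.273). Col6a3 (ENSMUSG00000048126, chr1:90765923-90843971, minus strand) measured 61.5, 45.9, 40.9 and 49.4 CPM (HVCN1 null, hearts 1 to 4) and 52.1, 64.6, 69.8 and 55.5 CPM (WT, hearts 5 to 8). HVCN1 null hearts 2, 3 and 4 were below the lowest WT heart, and HVCN1 null heart 1 lay within the WT range. Its log2 fold change was -0.29 (95% interval -0.60 to 0.016, adjusted p = 0.489). Col6a2 (ENSMUSG00000020241, chr10:76595762-76623630, minus strand) had the highest level of the group per length, 34.2 CPM per kb, and measured 170.2, 119, 142 and 129 CPM (HVCN1 null, hearts 1 to 4) and 138, 121, 149.5 and 112 CPM (WT, hearts 5 to 8). HVCN1 null heart 1 was the highest of all 8 hearts and WT heart 8 the lowest, and the log2 fold change was 0.11 (95% interval -0.19 to 0.40, adjusted p = 0.879).

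The 8 basement membrane genes lay closest to no difference, between -0.096 and 0.11. Col4a1 and Col4a2, which encode the ubiquitous type IV collagen network, were at 0.025 (SE 0.148) and 0.076 (SE 0.130). The laminin chain genes Lama2, the chain of muscle laminin, Lamb2 and Lamc1 were at -0.076 (SE 0.118), 0.070 (SE 0.0960) and -0.021 (SE 0.135). Nid1, whose product nidogen links laminin to type IV collagen, was at -0.096 (SE 0.152). Col15a1 and Col18a1, the multiplexin collagens of the basement membrane zone (type XVIII yields endostatin), were at -0.015 (SE 0.164) and 0.11 (SE 0.233). Col18a1 (ENSMUSG00000001435, chr10:77052178-77166548, minus strand) measured 29.6, 28.5, 25.1 and 18.7 CPM (HVCN1 null, hearts 1 to 4) and 22.9, 22.5, 34.5 and 14.3 CPM (WT, hearts 5 to 8). WT hearts 7 and 8 held its highest and lowest value, with all HVCN1 null hearts between them, and the log2 fold change was 0.11 (95% interval -0.41 to 0.63, adjusted p = 0.937).

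Col4a1 (ENSMUSG00000031502, chr8:11198423-11312826, minus strand) was the most abundant collagen gene per length, at 93.97 CPM per kb, followed by Col4a2 (ENSMUSG00000031503, chr8:11312805-11449287, plus strand) at 81.3 CPM per kb. Col4a1 measured 822, 564, 552 and 569 CPM (HVCN1 null, hearts 1 to 4) and 578, 709.8, 572 and 604 CPM (WT, hearts 5 to 8). HVCN1 null heart 1 stood above all other hearts, and the other 3 HVCN1 null hearts lay below all WT hearts. The log2 fold change was 0.025 (95% interval -0.30 to 0.35, adjusted p = 0.986). These 2 genes lie head to head on chromosome 8 and are read in opposite directions from a shared start region. Their promoter windows (RefSeq, GRCm38.p6, 250 bases before the transcription start to 50 bases after it, each written 5′ to 3′ on its own strand) are shown because the pair kept a nearly fixed ratio across hearts, described further down. Col4a1 covers chr8:11312777-11313076 on the minus strand, Col4a2 covers chr8:11312555-11312854 on the plus strand, and the capitals mark the 78 bases, chr8:11312777-11312854, that both windows hold as reverse complements of each other.
Col4a1: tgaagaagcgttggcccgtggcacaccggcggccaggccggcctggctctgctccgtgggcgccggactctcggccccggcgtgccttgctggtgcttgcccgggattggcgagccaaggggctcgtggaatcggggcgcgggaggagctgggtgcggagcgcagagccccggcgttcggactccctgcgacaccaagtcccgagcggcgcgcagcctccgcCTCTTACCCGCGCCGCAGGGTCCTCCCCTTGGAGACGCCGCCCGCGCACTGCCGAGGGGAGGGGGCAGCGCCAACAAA
Col4a2: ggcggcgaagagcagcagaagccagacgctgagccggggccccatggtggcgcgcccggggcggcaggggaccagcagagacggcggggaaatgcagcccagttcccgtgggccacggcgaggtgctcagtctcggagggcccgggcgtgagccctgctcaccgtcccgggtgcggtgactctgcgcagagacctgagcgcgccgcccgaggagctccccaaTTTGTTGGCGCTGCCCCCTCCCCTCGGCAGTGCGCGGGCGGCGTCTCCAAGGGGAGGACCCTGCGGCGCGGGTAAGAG
The windows held 37 and 33 CpG dinucleotides at a GC content of 74.0% and 73.7%, beside medians of 7 and 52.7% over 32851 RefSeq windows of the same length. The 2 genes share 22 exonic bases of the annotation, which is 0.29% of Col4a1 and 0.33% of Col4a2.

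Of the matricellular and adhesive glycoproteins, Fn1 (fibronectin, the scaffold on which collagen is deposited) was at -0.30 (SE 0.195), Postn (periostin, a product of activated fibroblasts) at 0.13 (SE 0.407) and Sparc (a collagen-binding protein needed for fibril maturation) at 0.016 (SE 0.150). Fn1 (ENSMUSG00000026193, chr1:71585520-71653200, minus strand) measured 84.5, 69.2, 54.6 and 47.05 CPM (HVCN1 null, hearts 1 to 4) and 68.5, 83.8, 99.7 and 63.3 CPM (WT, hearts 5 to 8). HVCN1 null hearts 3 and 4 were below all WT hearts, while HVCN1 null heart 1 was above 3 of the 4 WT hearts. Its log2 fold change was -0.30 (95% interval -0.74 to 0.13, adjusted p = 0.676). Sparc (ENSMUSG00000018593, chr11:55394500-55423183, minus strand) had the highest level per length of this group and, after Dcn, of all 37 genes, 148 CPM per kb. Sparc measured 436, 329, 312 and 292 CPM (HVCN1 null, hearts 1 to 4) and 378, 354, 351 and 271 CPM (WT, hearts 5 to 8), again with HVCN1 null heart 1 on top. Its log2 fold change was 0.016 (95% interval -0.32 to 0.35, adjusted p = 0.993). Postn is given because it varied most between hearts of 1 genotype, and was chosen after its values were seen. It measured 103, 48.3, 40.4 and 17.4 CPM (HVCN1 null, hearts 1 to 4) and 51.95, 46.8, 55.4 and 37.7 CPM (WT, hearts 5 to 8). HVCN1 null hearts 1 and 4 were the extremes of all 8 hearts, and the WT hearts lay between them. The log2 fold change of Postn was 0.13 (95% interval -0.78 to 1.03, adjusted p = 0.967), and it turned to -0.44 without HVCN1 null heart 1.

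Elastic fibre genes had the most negative group median, -0.37 on the log2 scale. Fbn1, which encodes the fibrillin-1 of the microfibril scaffold, was at 0.046 (SE 0.191). Fbn1 shares 20.14% of its exonic bases with Gm9913 on the opposite strand, which measured 0.085 to 1.05 CPM. Whether the counting separated the strands is not given in the sources used here, so reads of such overlaps may not be told apart. Eln (ENSMUSG00000029675, chr5:134702593-134747323, minus strand) encodes tropoelastin, the rubber-like core. Eln measured 56.6, 55.8, 66.7 and 48.1 CPM (HVCN1 null, hearts 1 to 4) and 84.3, 63.05, 119.9 and 44.8 CPM (WT, hearts 5 to 8). WT hearts 5 and 7, both with high Myl7, stood above all others, and WT heart 8 was the lowest of all 8 hearts. At 56.8 ± 7.63 CPM against 78.03 ± 32.3 CPM (SD, n = 4 and 4), the log2 fold change was -0.46 (95% interval -1.01 to 0.097, adjusted p = 0.580), the largest in size of the list. Fbln1 (ENSMUSG00000006369, chr15:85205949-85286535, plus strand), which encodes fibulin-1 of elastic fibres and basement membranes, had the highest level of this group per length, 32.6 CPM per kb. Fbln1 measured 100.5, 131, 111 and 74.9 CPM (HVCN1 null, hearts 1 to 4) and 152, 102, 204 and 80.9 CPM (WT, hearts 5 to 8). It was likewise highest in WT hearts 5 and 7, and its log2 fold change was -0.37 (95% interval -0.96 to 0.23, adjusted p = 0.738).

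The small leucine-rich proteoglycans bind collagen and control fibril thickness. Bgn (biglycan) was at -0.15 (SE 0.232), with 144 CPM per kb. Dcn (decorin, ENSMUSG00000019929, chr10:97479609-97518143, plus strand) had the highest level of all 37 genes per length of the principal transcript, 252 CPM per kb. Dcn measured 532, 511, 398 and 365 CPM (HVCN1 null, hearts 1 to 4) and 490.0, 388, 490.3 and 375 CPM (WT, hearts 5 to 8). Both groups split into a higher and a lower pair of hearts at nearly the same values, and the log2 fold change was 0.051 (95% interval -0.29 to 0.39, adjusted p = 0.964). Lum (lumican, ENSMUSG00000036446, chr10:97565128-97572703, plus strand) measured 57.6, 47.9, 40.01 and 32.7 CPM (HVCN1 null, hearts 1 to 4) and 51.6, 50.7, 65.2 and 40.5 CPM (WT, hearts 5 to 8). HVCN1 null hearts 3 and 4 lay below all WT hearts, and the log2 fold change was -0.22 (95% interval -0.63 to 0.18, adjusted p = 0.786).

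**Figure D2:**
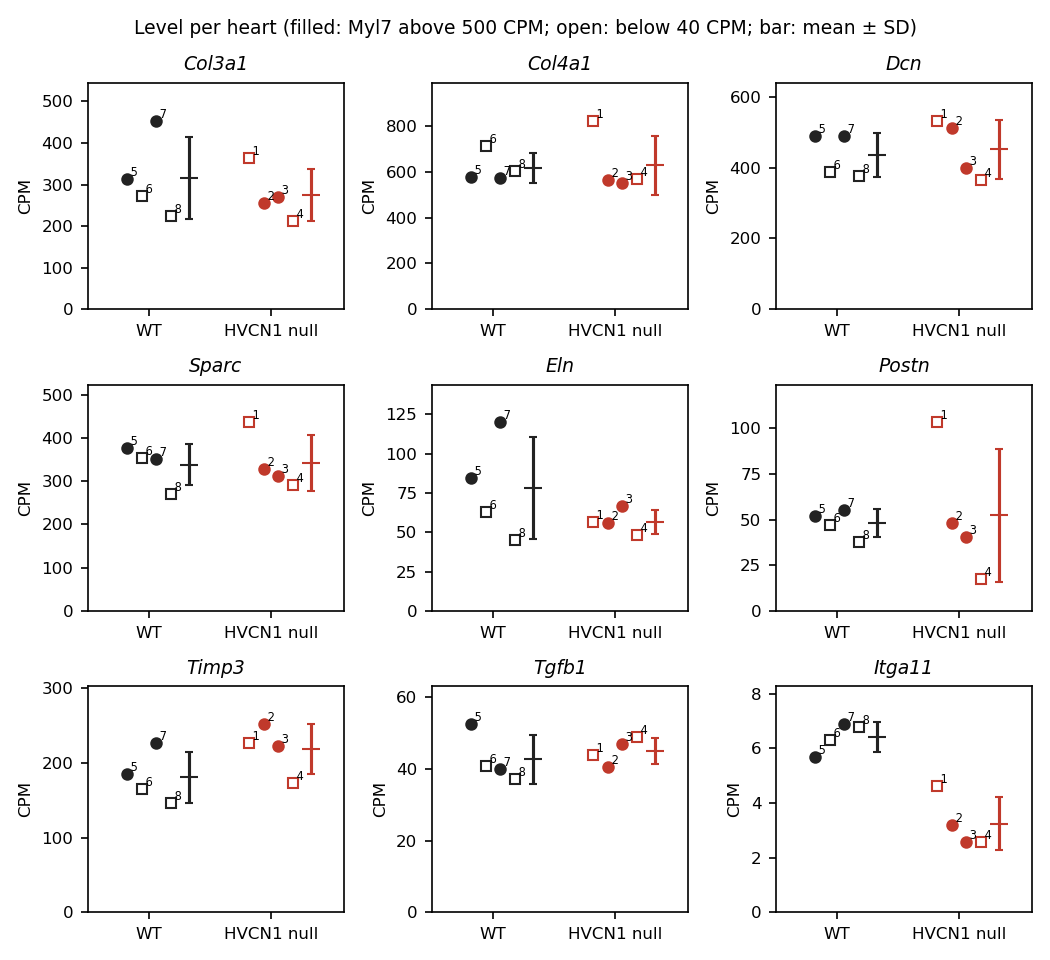
CPM per heart (y axis, from 0) in WT and HVCN1 null hearts (x axis) for 8 matrix genes and the integrin gene Itga11; numbers name the hearts, filled circles are hearts with Myl7 above 500 CPM, open squares hearts below 40 CPM, and bars the mean ± SD of 4 hearts. The groups overlap in each of the 8 matrix genes, whereas the 4 HVCN1 null values of Itga11, at most 4.62 CPM, lie below the 4 WT values, at least 5.67 CPM.

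Cross-linking enzymes were both on the negative side. Lox (lysyl oxidase, ENSMUSG00000024529, chr18:52516067-52529867, minus strand) had the lowest level per length of the list, 1.07 CPM per kb. Lox measured 6.12, 6.50, 2.77 and 2.77 CPM (HVCN1 null, hearts 1 to 4) and 5.01, 5.69, 7.06 and 4.83 CPM (WT, hearts 5 to 8). HVCN1 null hearts 3 and 4 lay below all other hearts, while HVCN1 null hearts 1 and 2 lay within the WT range. Its log2 fold change was -0.31 (95% interval -0.96 to 0.34, adjusted p = 0.825). Loxl1 (ENSMUSG00000032334, chr9:58287738-58313186, minus strand), the lysyl oxidase tied to elastic fibre upkeep, had the higher level of the pair, 20.9 CPM per kb. Loxl1 measured 74.2, 60.5, 67.8 and 56.2 CPM (HVCN1 null, hearts 1 to 4) and 84.4, 68.1, 85.1 and 54.05 CPM (WT, hearts 5 to 8). The groups overlapped, and its log2 fold change was -0.17 (95% interval -0.51 to 0.16, adjusted p = 0.809).

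Among proteases and their inhibitors, Mmp2 (the gelatinase that degrades denatured and type IV collagen) was at 0.022 (SE 0.209) and Mmp14, whose membrane-bound product cleaves fibrillar collagen and activates pro-MMP2, at -0.032 (SE 0.166). The inhibitor genes differed in sign, with Timp1 at -0.25 (SE 0.330) and Timp2 at 0.16 (SE 0.191). Timp3 (ENSMUSG00000020044, chr10:86300372-86349506, plus strand), the matrix-bound inhibitor and the most abundant of the 3 per length at 42.3 CPM per kb, had the most positive value of the 37. Timp3 measured 227, 252, 222 and 173 CPM (HVCN1 null, hearts 1 to 4) and 185, 165, 226 and 146 CPM (WT, hearts 5 to 8). WT hearts 5, 6 and 8 were below HVCN1 null hearts 1, 2 and 3, and WT heart 7 and HVCN1 null heart 4 lay in the other group's range. At 219 ± 33.2 CPM against 180.5 ± 34.1 CPM (SD, n = 4 and 4), the log2 fold change of Timp3 was 0.28 (95% interval -0.065 to 0.62, adjusted p = 0.587). Timp3 shares 21.28% of its exonic bases with Syn3 on the opposite strand, which measured only 0.743 to 1.67 CPM.

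The TGF-beta ligand genes had log2 fold changes between -0.11 and 0.15. Tgfb1, the main profibrotic ligand (ENSMUSG00000002603, chr7:25687002-25705077, plus strand), had the highest level of the 3 per length, 20.2 CPM per kb. Tgfb1 measured 43.96, 40.6, 46.8 and 48.8 CPM (HVCN1 null, hearts 1 to 4) and 52.6, 40.9, 40.1 and 37.2 CPM (WT, hearts 5 to 8). It was the only one of the 37 genes for which HVCN1 null heart 4 ranked above the other HVCN1 null hearts, and its log2 fold change was 0.077 (95% interval -0.18 to 0.33, adjusted p = 0.906). Tgfb2 (ENSMUSG00000039239, chr1:186622792-186705989, minus strand), known for its part in valve and outflow tract formation, measured 14.02, 14.6, 9.80 and 8.25 CPM (HVCN1 null, hearts 1 to 4) and 10.7, 10.8, 12.3 and 8.30 CPM (WT, hearts 5 to 8). HVCN1 null hearts held both the 2 highest values and the lowest, and its log2 fold change was 0.15 (95% interval -0.28 to 0.57, adjusted p = 0.887). Tgfb3 was at -0.11 (SE 0.186).

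The hearts differed within each genotype. A matrix level per heart was taken as the mean, over the 37 genes, of log2 CPM minus the gene's mean over the 8 hearts. It was 0.312, 0.019, -0.111 and -0.372 (HVCN1 null, hearts 1 to 4) and 0.087, -0.017, 0.343 and -0.26 (WT, hearts 5 to 8). Averages by genotype were -0.038 ± 0.284 for HVCN1 null and 0.038 ± 0.25 for WT (SD, n = 4 and 4). The 37 genes together took 0.441% to 0.694% of the counts of a heart. WT heart 7 was the highest heart for 19 genes and HVCN1 null heart 1 for 13. HVCN1 null heart 4 was the lowest for 17, WT heart 8 for 12 and HVCN1 null heart 3 for 6. Within that common shift the genes differed in which heart led, also inside a role group. HVCN1 null heart 1 led in Postn, Fbn1, Col8a1, Col4a1, Col4a2 and the fibrillar collagen Col5a1. WT heart 7 led in the fibrillar collagens Col1a1, Col1a2, Col3a1 and Col5a2, in Eln and Fbln1, and in Col15a1 and Col18a1 of the basement membrane. Basement membrane genes had the smaller spread, with group levels between -0.14 and 0.266 per heart, beside -0.717 to 0.613 for the matricellular genes.

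Fibroblast marker transcripts moved with the matrix level in some of the extreme hearts. The summed CPM of 8 fibroblast markers (Pdgfra, Tcf21, Dpt, Dpep1, Mfap5, Gsn, Pi16 and Lamc3, all 8 past the filter, Mfap5 and Lamc3 being matrix genes themselves) was 1842, 1708, 1759 and 1236 (HVCN1 null, hearts 1 to 4) and 2066, 1429, 2214 and 1355 (WT, hearts 5 to 8). The lowest heart of each genotype by matrix level, hearts 4 and 8, was also the lowest by this sum, and WT heart 7 was the highest by both. HVCN1 null heart 1, with a matrix level of 0.312, had a smaller sum than WT heart 5, with a matrix level of 0.087. Between genotypes 0 of the 8 markers passed edgeR's test, which 1.14% of all tested genes did. At an unadjusted p under 0.05, 1 was lower, beside 5.52% of all tested genes. The log2 fold change was above 0 for 2 markers and below 0 for 6, with a median of -0.11. The part of fibroblast content in the matrix levels was not tested.

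**Figure D3:**
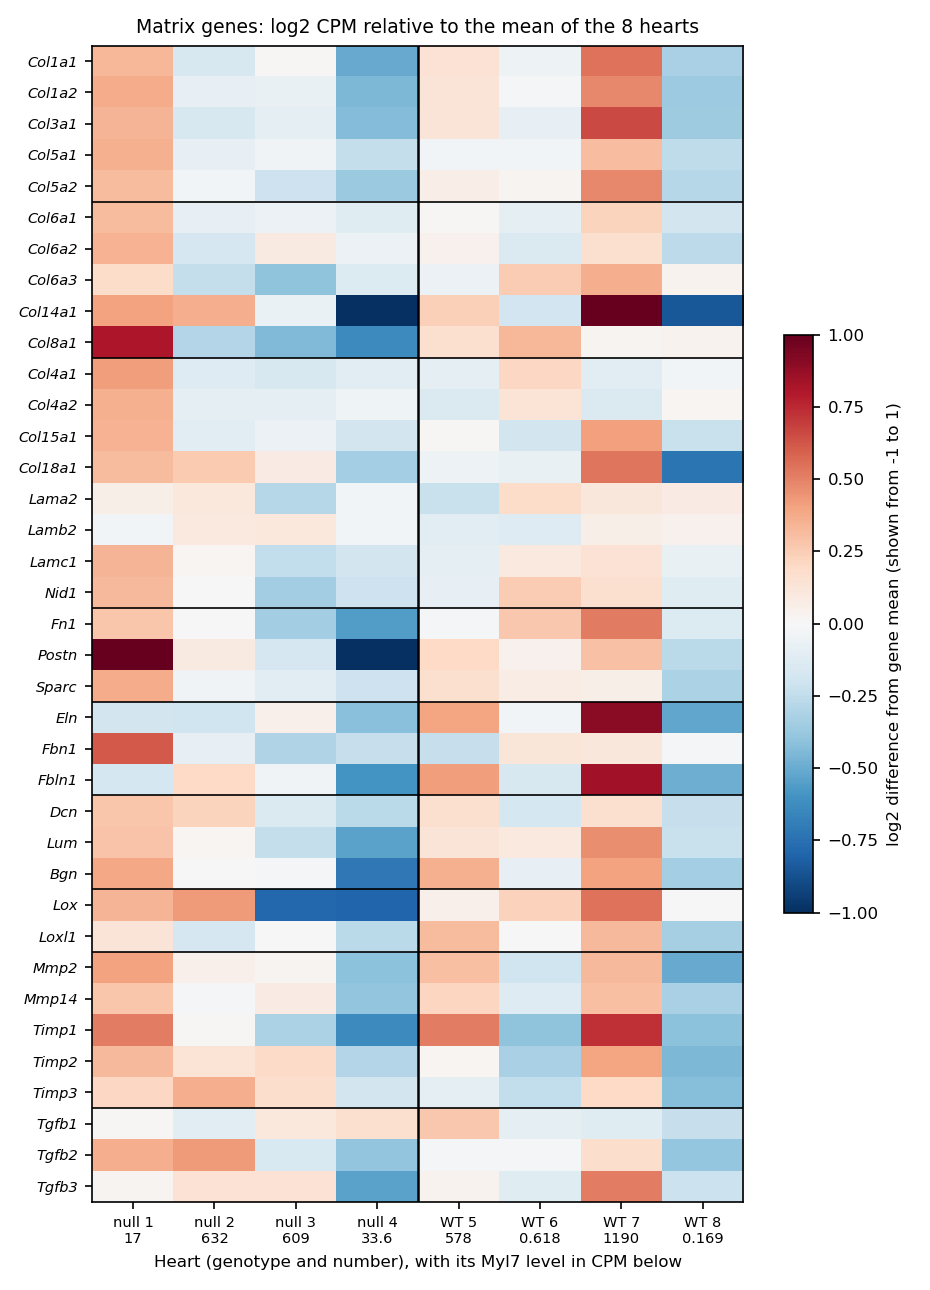
Heat map of the 37 matrix genes (rows, grouped by role) in 8 hearts (columns, with the Myl7 CPM of each heart beneath); colour is log2 CPM minus the gene's mean over the 8 hearts, red above and blue below, shown from -1 to 1. HVCN1 null heart 1 (matrix level 0.312) and WT heart 7 (0.343) are mostly red, and HVCN1 null heart 4 (-0.372) and WT heart 8 (-0.26) mostly blue.

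Because Myl7 split each genotype, the comparison was repeated within the hearts above 500 CPM and within those below 40 CPM, a step added after the data were seen. Myl7 was still unequal inside each set: WT heart 7, at 1190 CPM, exceeded the other high hearts, and HVCN1 null hearts 1 and 4, at 17.0 and 33.6 CPM, exceeded WT hearts 6 and 8, at 0.618 and 0.169 CPM. Among the 4 hearts with Myl7 above 500 CPM (HVCN1 null 2 and 3, WT 5 and 7), 33 of the 37 genes had a log2 fold change below 0, as did 51.8% of all tested genes, and the median was -0.23. At an unadjusted p under 0.05, 8 genes were lower and 0 higher, beside 3.15% and 2.38% of all genes, and 0 passed the adjusted threshold, which 0.158% of all genes did. The 8 were Col3a1, Col6a3, Col8a1, Eln, Fbln1, Bgn, Loxl1 and Timp1. Their log2 fold changes in these hearts were -0.55, -0.50, -0.47, -0.75, -0.56, -0.40, -0.41 and -0.79 in that order. The values in HVCN1 null hearts lay wholly below those in WT hearts for 20 genes and wholly above for 2, where 17.3% and 14.4% of all genes did so. In the same 4 hearts all 8 fibroblast markers were below 0 (median -0.355, summed 1708 and 1759 CPM against 2066 and 2214 CPM). So were all 6 macrophage markers (median -0.402), all 4 tested atrial markers (-0.526), all 4 tested adipocyte markers (-0.904) and all 5 erythroid markers (-2.077). Of the endothelial markers 5 of 6 were below 0 (-0.151), of the epicardial markers 5 of 6 (-0.492), and of the tested activated fibroblast markers 5 of 6 (-0.32). All 4 ventricular markers were above 0 (0.072). Smooth muscle and pericyte markers were divided, with 3 above and 3 below (0.006), as were the valve and cartilage-like markers, with 2 and 2 (-0.06). The part of these markers in the matrix values was not tested.

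Among the 4 hearts with Myl7 below 40 CPM (HVCN1 null 1 and 4, WT 6 and 8), the direction was the opposite for most genes. There, 29 of 37 were above 0, as were 50.6% of all tested genes, with a median of 0.21. Only Col6a2, at 0.38, had an unadjusted p under 0.05, beside 5.18% of all genes in that direction, and 0 genes passed the adjusted threshold, which 0.482% of all genes did. The groups did not overlap for 5 genes that were higher and 1 that was lower, beside 19.7% and 19.9% of all genes. In the same 4 hearts all 4 tested atrial markers were above 0 (median 5.216, summed 308.3 and 311.9 CPM against 122 and 84.8 CPM), as were all 3 tested adipocyte markers (2.605) and all 4 tested valve and cartilage-like markers (1.921). Of the fibroblast markers 6 of 8 were above 0 (median 0.14), and of the macrophage markers 0 of 6 (-0.148). Activated fibroblast markers held 4 above 0 and 2 below (0.376), erythroid markers 3 and 2 (0.256), and epicardial markers 2 and 2 (-0.009). Ventricular markers held 1 of 4 above 0 (-0.208), endothelial markers 2 of 6 (-0.025), and smooth muscle and pericyte markers 3 of 6 (0.018). The part of these markers was not tested here either, so that genotype and atrial content cannot be told apart in these 4 hearts. They included HVCN1 null heart 1, high in nearly all matrix genes, and HVCN1 null heart 4, the lowest. The difference between the 2 comparisons was itself tested as an interaction: 0 of the 37 genes and 0 of all 14796 genes passed an adjusted p under 0.05 in edgeR's quasi-likelihood test. At the unadjusted threshold the interaction held 2 matrix genes, Eln and Timp1, beside 1.99% of all genes and 1.39% of all genes in their direction. The interaction (log2 fold change at high minus at low Myl7) was -0.69 for Eln and -1.25 for Timp1.

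With Myl7 as a covariate over all 8 hearts, 0 genes passed the adjusted threshold (1.27% of all genes did). Eln and Fbln1 then had an unadjusted p under 0.05, as did 12.2% of all genes, with log2 fold changes of -0.60 (edgeR adjusted p = 0.0787) and -0.54 (adjusted p = 0.103). Across the Myl7 split itself, both hearts with high Myl7 exceeded both with low Myl7, in each genotype, for Fbln1 and Tgfb3, and lay below them for Col4a1 and Col4a2. Over all tested genes these patterns occurred in 5.81% and 3.99%. Adipocyte and epicardial marker sums also differed among the hearts, from 0.433 to 63.5 CPM and from 10.3 to 60.3 CPM, and were both highest in WT heart 7. Their part in the matrix values was not tested.

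**Figure D4:**
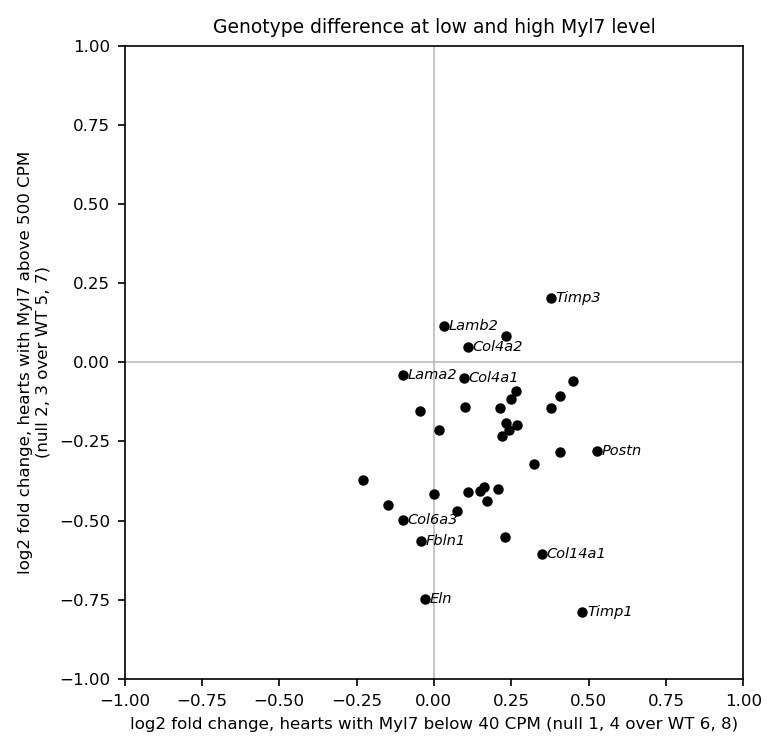
Log2 fold change (HVCN1 null over WT) of each matrix gene in the 4 hearts with Myl7 below 40 CPM (x axis) and in the 4 hearts with Myl7 above 500 CPM (y axis); each point is 1 gene. Of the 37 points, 33 lie below 0 on the y axis and 29 lie above 0 on the x axis, with Timp1 and Eln lowest on the y axis.

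Although levels varied between hearts, some pairs of genes kept a nearly constant ratio. These included some, but not all, pairs whose products assemble together. Over the 666 pairs of the 37 genes, the SD of the log2 ratio across the 8 hearts had a median of 0.293. The smallest was that of Col1a1 and Col1a2, 0.0595, whose CPM ratio stayed between 0.979 and 1.09 while Col1a1 itself ran from 124.7 to 257.6 CPM. The next was that of Col4a1 and Col4a2, 0.0609, with a ratio of 1.13 to 1.24. Col1a1 and Col3a1, the partners in cardiac collagen fibrils, followed with 0.0661. Col5a1 and Col6a1, chains of different fibres, came next with 0.07. Lamc1 and Nid1, laminin and its linker, gave 0.0755. Col5a1 with Col15a1 at 0.0768, Col1a2 with Col5a2 at 0.0775 and Col5a2 with Lum at 0.0794 followed, which are not chains of one molecule. Col1a2 and Col3a1 gave 0.081, and Col6a1 and Col6a2, which lie 85162 bases apart on chromosome 10, gave 0.0812. Next were Col6a1 with Col15a1 at 0.0866 and Mmp2 with its activator Mmp14 at 0.0986. Other partners of one molecule were less close, with 0.115 for Col5a1 and Col5a2, 0.226 for Col6a1 and Col6a3, and 0.288 for Col6a2 and Col6a3, the last near the median of all pairs. The laminin chains gave 0.150 for Lama2 and Lamc1, 0.199 for Lama2 and Lamb2, and 0.226 for Lamb2 and Lamc1. The measure also depends on the spread of each gene, and Lamb2 itself had an SD of only 0.09 across the 8 hearts. Beside the type IV and type VI pairs above, other neighbours were Col3a1 and Col5a2, 24615 bases apart on chromosome 1, at 0.113. Dcn and Lum, 46985 bases apart on chromosome 10, gave 0.204. Among family members, the collagens Col1a1 and Col4a1 gave 0.343 and Lox and Loxl1 gave 0.471, while Eln and Fbn1 of elastic fibres gave 0.548. These are descriptions over 8 hearts that share their libraries, and the ratios in HVCN1 null and WT hearts were 1.02 and 1.05 for the type I pair and 1.16 and 1.21 for the type IV pair.

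**Figure D5:**
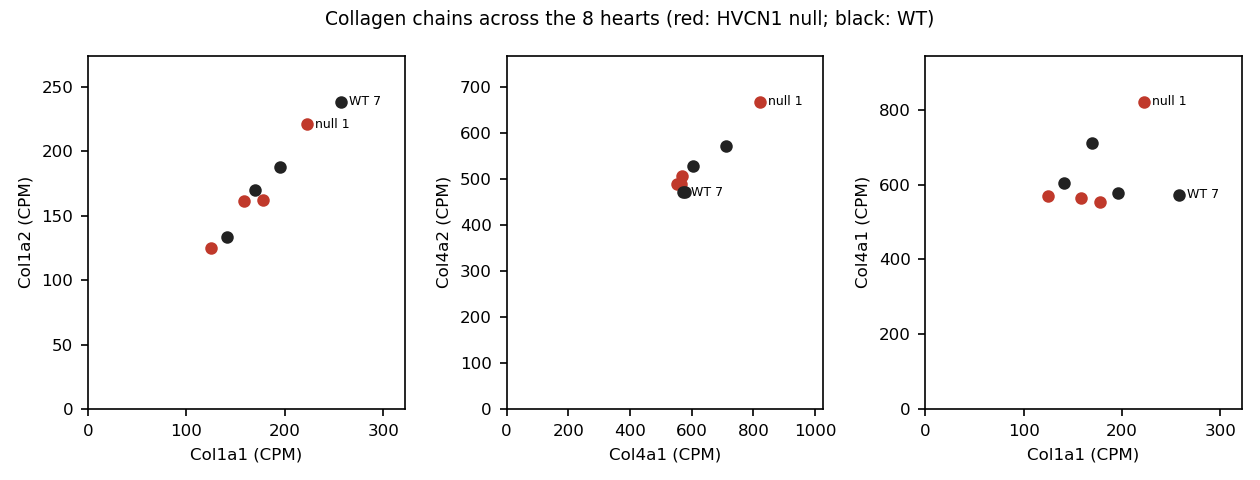
CPM of 1 collagen gene against another (both axes from 0), with 1 point per heart, red for HVCN1 null and black for WT, and HVCN1 null heart 1 and WT heart 7 named. Col1a1 with Col1a2 and Col4a1 with Col4a2 fall on a line for both genotypes, with an SD of the log2 ratio of 0.0595 and 0.0609, whereas Col1a1 with Col4a1 scatters, at 0.343.

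The wider pathway was followed through 6 further lists of 118 genes, of which 113 passed the filter. At an adjusted p under 0.05, 0 of these rose and 1 fell with the knockout (1.14% of all tested genes were called), while 4 were higher and 8 lower at an unadjusted p under 0.05, beside 5.46% and 5.52% of all tested genes. Of the 113, 60 had a log2 fold change above 0 and 53 below, with a median of 0.009. Among 19 tested integrins and other matrix receptors, Itga11, the integrin chain with which fibroblasts bind fibrillar collagen, fell. Itga11 (ENSMUSG00000032243, chr9:62677826-62783982, plus strand) measured 4.62, 3.21, 2.58 and 2.57 CPM (HVCN1 null, hearts 1 to 4) and 5.67, 6.30, 6.90 and 6.79 CPM (WT, hearts 5 to 8). The groups did not overlap, and the log2 fold change was -0.98 (95% interval -1.41 to -0.55, adjusted p = 0.0466). It was called in 8 of 18 alternative fits. Leaving out any heart but HVCN1 null heart 1 took the adjusted p above 0.05, up to 0.136.

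The other 5 lists held 0 called genes, and their 2 genes of smallest p are given in each. Of 10 other collagens, Col6a6 was at 0.39 (SE 0.126) and Col5a3 at 0.18 (SE 0.116). Of 15 collagen-processing genes, Serpinh1, the collagen chaperone HSP47, was at -0.26 (SE 0.108) and Plod2, a lysyl hydroxylase, at 0.17 (SE 0.0990). Of 33 other matrix proteins, Lama5 was at -0.58 (SE 0.214). Cilp, a matrix protein of cartilage and of activated cardiac fibroblasts, measured 13.1, 4.84, 8.09 and 2.40 CPM (HVCN1 null, hearts 1 to 4) and 29.9, 30.1, 22.3 and 19.8 CPM (WT, hearts 5 to 8). The groups of Cilp did not overlap, and its log2 fold change was -1.85 (95% interval -2.74 to -0.96, adjusted p = 0.0656). It passed the threshold in 7 of 18 alternative fits, among them DESeq2 (adjusted p = 0.0143) and the fits without HVCN1 null heart 1 (0.022) or heart 4 (0.0475).

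Of 19 genes for TGF-beta storage, receptors and targets, Eng, the endothelial co-receptor endoglin, was at -0.28 (SE 0.124) and Ccn2, the TGF-beta target known as connective tissue growth factor, at 0.74 (SE 0.336). Ccn2 measured 119, 206, 183 and 100.1 CPM (HVCN1 null, hearts 1 to 4) and 102, 60.4, 149 and 51.9 CPM (WT, hearts 5 to 8), with the higher 2 hearts of each genotype being those with high Myl7. It was called in 0 of 18 alternative fits. Within the hearts with Myl7 below 40 CPM, 2 against 2, its log2 fold change was 0.98 (edgeR adjusted p = 0.047). Myl7 itself differed there, at 17.0 and 33.6 CPM in HVCN1 null hearts against 0.618 and 0.169 CPM in WT hearts. Genotype and atrial content therefore cannot be told apart for this value. Ccn2 was not called within the hearts with Myl7 above 500 CPM. Of 17 other proteases and inhibitors, Plat, which encodes tissue plasminogen activator, was at -0.29 (SE 0.136). Timp4, the TIMP known for its cardiac expression, measured 37.9, 29.96, 33.1 and 32.2 CPM (HVCN1 null, hearts 1 to 4) and 19.5, 20.6, 8.86 and 21.6 CPM (WT, hearts 5 to 8). Each HVCN1 null heart was above each WT heart, the log2 fold change was 0.92 (95% interval 0.41 to 1.43, adjusted p = 0.111), and it passed the threshold in 7 of 18 alternative fits, DESeq2 among them (adjusted p = 0.00363) and also the fit without WT heart 7 (adjusted p = 0.0145).

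Among the markers of activated fibroblasts, Acta2 (smooth muscle alpha-actin, also made by vascular smooth muscle) rose. Acta2 measured 357, 149.8, 336 and 201 CPM (HVCN1 null, hearts 1 to 4) and 108, 107, 125 and 79.5 CPM (WT, hearts 5 to 8). The groups did not overlap, and the log2 fold change was 1.32 (95% interval 0.73 to 1.90, adjusted p = 0.0466), with a call in 8 of 18 alternative fits. Leaving out any heart but HVCN1 null 2 or 4 took the edgeR adjusted p above 0.05, to between 0.0628 and 0.149. Of the 6 tested genes of that list 3 were above 0 and 3 below, with a median of 0.046. Cilp, at the lower end, belongs to that list too. The 6 tested smooth muscle and pericyte markers held 0 called genes, with a median of 0.024. Of the 4 tested valve and cartilage-like markers, 2 had a log2 fold change above 0 and 2 below, from -1.04 to 2.39, with a median of 0.098. Wif1, a secreted WNT inhibitor, rose and was the only one called. It measured 8.20, 14.8, 21.6 and 24.98 CPM (HVCN1 null, hearts 1 to 4) and 4.23, 1.33, 5.63 and 1.92 CPM (WT, hearts 5 to 8), and the log2 fold change was 2.39 (95% interval 1.39 to 3.40, adjusted p = 0.0376). Leaving out any heart but HVCN1 null 1 or WT 7 took its adjusted p to between 0.0534 and 0.101. All 6 macrophage markers had a log2 fold change below 0, with a median of -0.30, and 0 were called (1.14% of all tested genes were). At an unadjusted p under 0.05 in edgeR's test, 2 of the 6 were lower, beside 5.52% of all tested genes. The summed CPM of these macrophage markers was 156 to 203 with HVCN1 null and 174 to 251 with WT. Their part in the matrix values was not tested.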

How the data were processed

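RNA from 4 HVCN1 null and 4 WT mouse hearts was sequenced as poly-A libraries, 1 per heart. The authors deposited unnormalized counts for each Ensembl gene and heart, made with STAR and featureCounts. The submitters' processing notes name mm10 and GRCm38, whereas the methods of the paper name a human reference genome. The identifiers in the counts are those of mouse genes. Versions and the strand setting are not given in the sources used here. Symbols and positions came from GENCODE M21 (GRCm38), in which 38872 (99.5%) of the identifiers were found without their version. Promoter windows came from RefSeq (GRCm38.p6), where 25 of the 37 genes had one.

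Genotypes were compared with edgeR 4.0.16 (R 4.3.3) by the quasi-likelihood test with TMM scaling, filterByExpr and no covariate, with Benjamini-Hochberg adjustment over 14796 genes. CPM values used the same scaling, log2 CPM a prior count of 2, and levels per kb the length of the principal transcript. Some ranks by level per kb depend on that length. Per kb of all annotated exonic bases, Sparc (89.9 CPM) exceeded Dcn (76.0 CPM). Likewise, Timp2 (34.9 CPM) exceeded Timp3 (24.5 CPM), and Col6a1 (26.8 CPM) exceeded Col6a2 (16.2 CPM). Libraries held 25851255 to 38874640 counts, and the genes at least 57 in any heart. DESeq2 1.42.0, voom of limma 3.58.1, other scalings, filters and edgeR tests, atrial covariates and the omission of each heart were alternatives.

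The genes and lists were chosen with earlier results of these data known. All 37 genes are named, and values in every heart are given for those at an unadjusted p under 0.05 or without overlap (0 genes), and in each role group for the gene with the largest log2 fold change and the one with the highest level per kb. In the other lists the called genes are named, or else the 2 of smallest p. The labels give no batch. A listed gene is not reported here and was left out of its list, though totals over all genes include it.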

Additional observations from a re-analysis of the deposited data

Results flagged for a closer look

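In 4 of the 76 groups of 4 values examined (37 genes and the matrix level, in 2 genotypes), the gap between HVCN1 null heart 1 and the nearest other heart took more than 0.829 of the group's range, the 95% critical value of Dixon's test for 4 samples. Col4a1 measured 822 CPM in that heart and 552 to 569 CPM in the other HVCN1 null hearts. Col4a2 measured 668 CPM there and 488 to 506 CPM in the others, and it shares its start region with Col4a1. Col6a1 measured 145 CPM against 107 to 112 CPM, and Col8a1 measured 39.5 CPM against 14.5 to 18.5 CPM. Chance gives about 1 such group in 20, and these 4 come from 1 heart and are not independent of each other.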

How the results depend on the processing

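No matrix gene passed the adjusted threshold under any of 18 planned and 2 added alternatives, and the smallest adjusted p was 0.0652 (Col8a1, without HVCN1 null heart 1). The number at an unadjusted p under 0.05 was 0 as reported (11.0% of all genes), 1 with no filter (8.64%), 2 with Myl7 (12.2%) and 2 with the atrial list as covariate (12.4%), 0 to 3 with 1 heart left out (8.26% to 11.5%), 8 within the hearts with Myl7 above 500 CPM (5.53%) and 1 within those below 40 CPM (9.52%). The number without overlap was 22 within the hearts of high Myl7, with 20 lower and 2 higher, beside 17.3% and 14.4% of all genes. It was 6 within those of low Myl7, with 1 lower and 5 higher, beside 19.9% and 19.7% of all genes. With 1 heart left out it was 0 to 3, for which no share over all genes is given here. The median log2 fold change was -0.152 to 0.037 with 1 heart left out, -0.234 within high and 0.206 within low Myl7.

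With 1 heart left out, a change of sign by more than the standard error occurred for Col4a1 (range -0.13 to 0.10), Postn (-0.44 to 0.42), Fbn1 (-0.21 to 0.15), Col3a1 (-0.36 to 0.03) and Col14a1 (-0.49 to 0.22), the first 3 without HVCN1 null heart 1 and the last 2 without WT heart 7. Within high Myl7 the values turned to -0.22 for Col5a1, -0.20 for Col6a1, -0.14 for Col6a2, -0.19 for Sparc, -0.12 for Dcn, -0.28 for Mmp2, -0.06 for Timp2 and -0.09 for Tgfb1. Within low Myl7 they turned to 0.17 for Col1a1, 0.21 for Col1a2, 0.23 for Col3a1, 0.15 for Col5a2, 0.35 for Col14a1, 0.32 for Col15a1, 0.16 for Bgn, 0.11 for Loxl1, 0.22 for Mmp14 and 0.48 for Timp1. These come from 2 hearts against 2, and the cause was not tested.

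The other lists held 1 called gene as reported, 0 with library sizes not scaled or a CPM above 1 in 4 hearts, 3 with no filter, 3 with the exact test, the likelihood ratio test or DESeq2, 2 with voom or the atrial list, 0 to 2 with 1 heart left out (2 without HVCN1 null heart 1), and 0 and 1 within high and low Myl7. Over all genes, calls numbered 169 as reported (1.14%), 150 with library sizes not scaled, 130 with a CPM above 1 in 4 hearts and 219 with no filter. They numbered 367 by the exact test (2.48%), 376 by the likelihood ratio test (2.54%) and 466 by DESeq2 (3.15%). With voom they numbered 147 (0.994%), and with the atrial list 226. With 1 heart left out they numbered 71 to 152, and within high and low Myl7 24 (0.158%) and 71 (0.482%). No paired analysis was possible because hearts 1 to 4 and 5 to 8 have no number in common.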
